A study of Mus musculus with 6 samples.

Results

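The transcripts of 10 genes of the Notch pathway were examined in dental pulp of the mouse mandibular first molar: the receptors Notch1, Notch2, Notch3 and Notch4, the ligands Jag1, Jag2, Dll1 and Dll4, and the target genes Hes1 and Hey1. They were chosen by name as the core of the pathway, and all 10 were among the 27506 genes of the count table. RNA had been sequenced from 3 libraries of Ror2fl/fl control mice and 3 libraries of Osr2-Cre;Ror2fl/fl mice of the C57BL/6 strain at P3.5 (3.5 days after birth), when the molar root begins to form. Both groups carried the floxed Ror2 allele on both chromosomes, and their genotype labels differ by the Cre transgene. The sample titles also differ between the groups in letter code and number series. Osr2-Cre acts in the dental mesenchyme and the surrounding bone but not in the dental epithelium, so epithelial cells in the dissected tissue keep Ror2, a receptor for Wnt5a. The labels do not say whether each library came from a separate animal, so p-values measure only the spread between these libraries, which may be technical.

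Notch receptors are single-pass membrane proteins that are activated by Jagged and Delta-like ligands on neighboring cells. Ligand binding exposes the receptor to cleavage by Adam10 and then by gamma-secretase, which frees the intracellular domain to enter the nucleus and join Rbpj, a DNA-binding protein, and Mastermind-like coactivators. Genes of the Hes and Hey families, which encode basic helix-loop-helix repressors, are among the best known targets. In the tooth, Notch receptors and ligands are known from the enamel organ, the pulp, its vessels and the cells around them.

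Of the 10 genes, Hey1 alone passed the test, with a level 37.2% lower in Osr2-Cre;Ror2fl/fl libraries. The other target gene, Hes1, differed by less than the spread between libraries. Jag2 was higher in every Osr2-Cre;Ror2fl/fl library but missed the threshold (adjusted p = 0.059, edgeR), and the receptors, Jag1, Dll1 and Dll4 overlapped between the groups. In these bulk libraries, fewer cells of a type and less RNA per cell cannot be told apart.

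The Ror2 transcript was checked first, because it is the targeted gene. The control libraries held 38.2, 36.2 and 36.7 CPM (read counts relative to the effective library size), whereas the Osr2-Cre;Ror2fl/fl libraries held 27.9, 28.1 and 26.3 CPM. Every Osr2-Cre;Ror2fl/fl library lay below every control library, and the log2 fold change (Osr2-Cre;Ror2fl/fl minus control, as throughout) was -0.43 ± 0.08 (SE) with an adjusted p-value of 0.013 by edgeR's quasi-likelihood test. Counts were summed over all exons, so transcripts without the floxed part also count, and Ror2 RNA of cells that Cre did not reach adds to the level. The call was lost without control library 2 (adjusted p = 0.066) or control library 3 (adjusted p = 0.075), and with the sample index of the labels as a block (adjusted p = 0.058, edgeR).

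The libraries held between 56134770 and 62628940 estimated counts, and each of the 10 genes had between 499 and 30249 of them in a library. Control library 1 carries another letter code in its label than control libraries 2 and 3, and its summed levels of endothelial (231 CPM) and of pericyte and smooth muscle markers (327 CPM) were the lowest among the controls. The labelled tissue was dental pulp. Mesenchymal (449 to 603 CPM summed over 8 markers) and odontoblast markers (13100 to 46400 CPM over 6, mostly from Col1a1) were present in all libraries. So were markers of dental epithelium, whose sum was 171000 to 192000 CPM in control, against 185000 to 255000 CPM in Osr2-Cre;Ror2fl/fl libraries, mostly from the enamel matrix genes Amelx, Ambn and Enam. These 6 libraries were therefore not pulp alone. The library numbers in the labels run in different series for the groups, so a batch and the genotype cannot be told apart.

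Among all 19330 genes tested, 20.2% passed an adjusted p-value of 0.05, with 9.84% lower and 10.4% higher in Osr2-Cre;Ror2fl/fl libraries. Of the 10 Notch genes, all of which were abundant enough to be tested, 1 passed and was lower (Hey1), 0 passed and were higher, and 9 did not pass. An unadjusted p-value under 0.05 was given by edgeR to 2 of the 10 (Hey1 and Jag2) and to 38.3% of all genes. The groups did not overlap for the same 2, 1 in each direction, against 44.7% of all genes (22.1% lower and 22.6% higher). The median log2 fold change was -0.03 over the 10 and 0.01 over all genes tested. The 10 genes held no larger share of calls than the table as a whole.

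**Figure D1:**
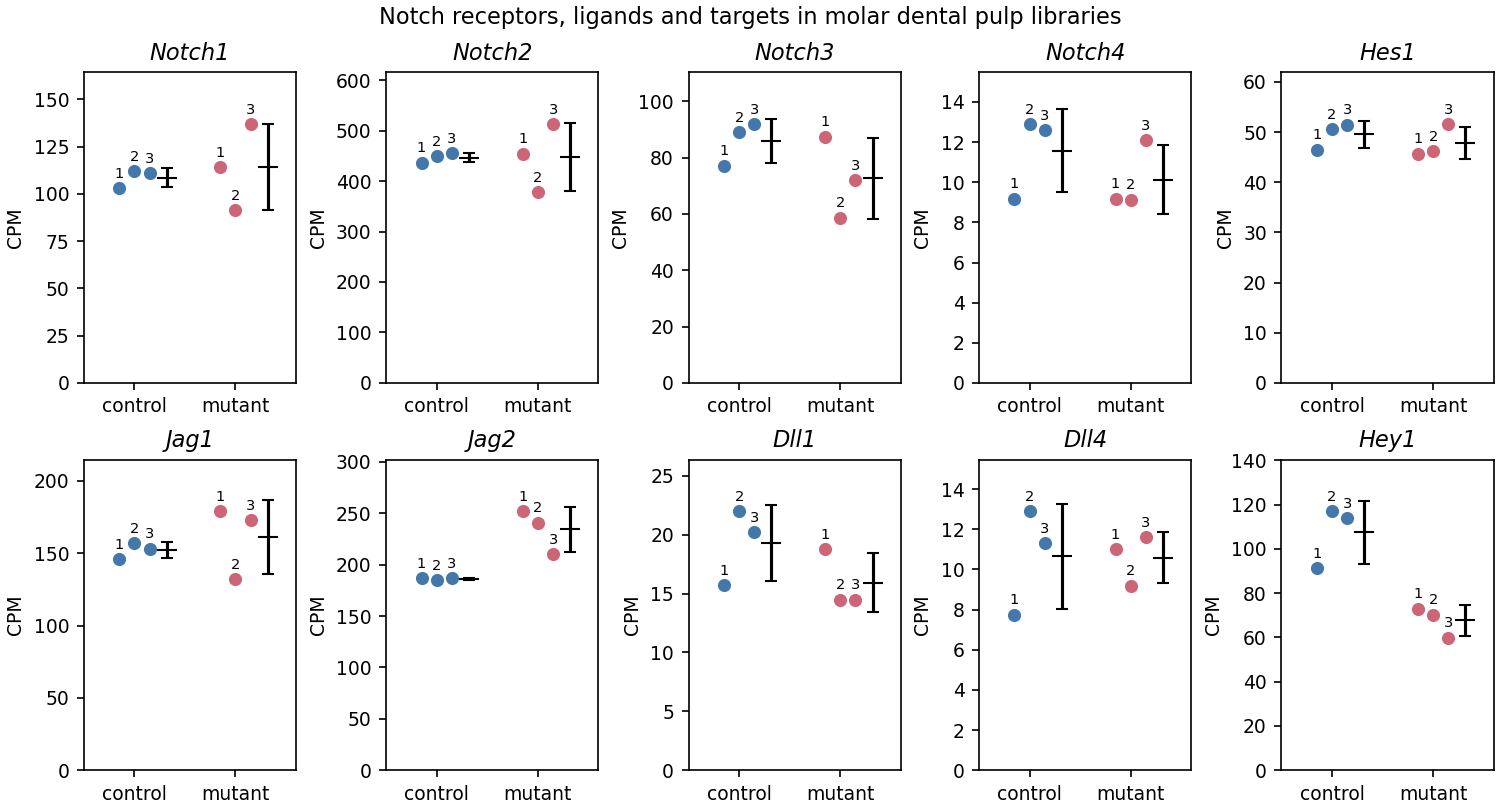
CPM (vertical axes, from 0) of each of the 10 genes in the 3 control (blue) and 3 Osr2-Cre;Ror2fl/fl (mutant, red) libraries, numbered by library, with the mean ± SD of each group in black. The groups separate for Hey1, where all red points lie below all blue points, and for Jag2, where all lie above, and they overlap for the other 8 genes.

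Differences in level between genes are given as CPM per kilobase of exon, because long transcripts collect more reads. On this scale Notch2 stood first of the 10 genes, at 41.5 on average over the 6 libraries (range 35.1 to 47.5), and was above Jag2, the next gene, in every library. Jag2 (30.2), Jag1 (26.9), Hey1 (26.8) and Hes1 (23.9) followed, and each overlapped the next in this order. Jag2 (26.5 to 36.3) did not overlap with Hes1 (22.4 to 25.3) and lay above it in all 6 libraries. Notch3 (9.81) and Notch1 (7.82) came next, with Notch3 above Notch1 in 5 of 6 libraries. Dll1 (4.17), Dll4 (2.75) and Notch4 (1.34) closed the order, and each of them lay above the next in all 6 libraries without overlap of the ranges. With the longest transcript in place of the union of exons, Jag1 moved below Hes1 and Notch1 moved above Notch3, while the other places stayed within 1 rank.

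**Figure D2:**
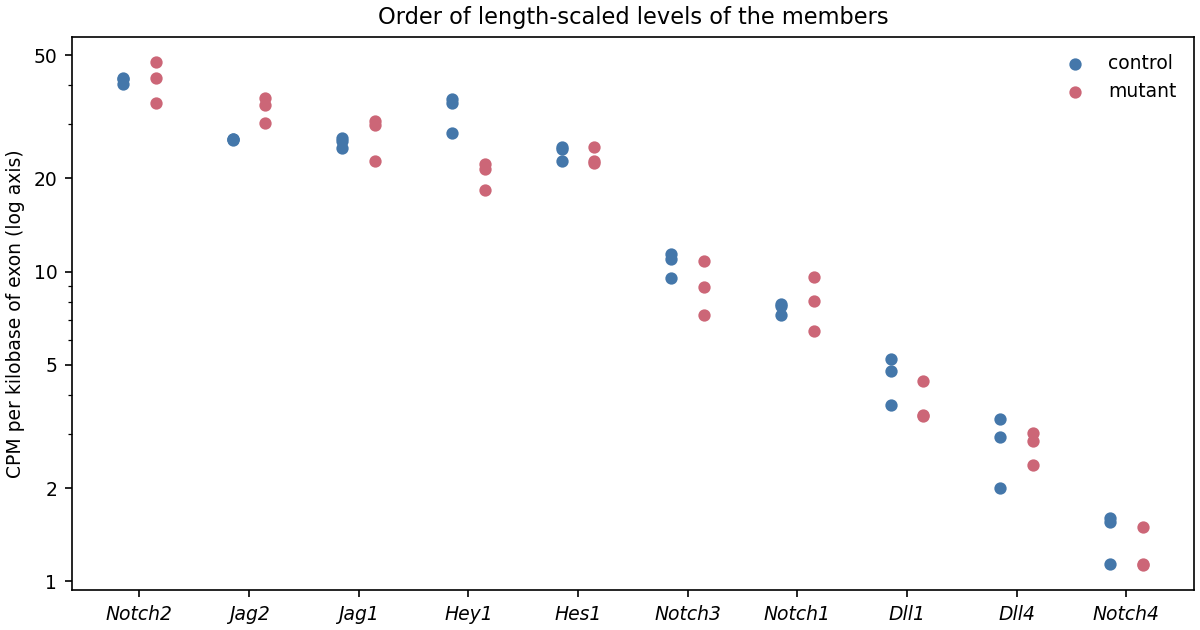
CPM per kilobase of exon (log axis) of the 10 genes in the 6 libraries, ordered by their mean over all libraries, with control libraries in blue and Osr2-Cre;Ror2fl/fl libraries in red. Notch2 leads at 35.1 to 47.5, 4 genes share the middle between 18.4 and 36.3, and Dll1, Dll4 and Notch4 lie at the low end, down to 1.13.

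The promoters of 3 receptors are shown because these genes mark the top, an intermediate place and the bottom of the receptor order. Each is the stretch of 250 bases before the RefSeq start on GRCm38.p6, written 5′ to 3′ on the strand of the gene, with CpG dinucleotides in capitals.
Notch2 promoter, chr3:98013288-98013537, plus strand: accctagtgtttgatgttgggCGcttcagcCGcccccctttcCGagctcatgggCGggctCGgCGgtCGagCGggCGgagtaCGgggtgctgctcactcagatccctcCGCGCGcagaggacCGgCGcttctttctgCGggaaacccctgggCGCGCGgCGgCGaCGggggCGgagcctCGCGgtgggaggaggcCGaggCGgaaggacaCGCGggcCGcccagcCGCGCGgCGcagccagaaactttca
Notch3 promoter, chr17:32166891-32167140, minus strand: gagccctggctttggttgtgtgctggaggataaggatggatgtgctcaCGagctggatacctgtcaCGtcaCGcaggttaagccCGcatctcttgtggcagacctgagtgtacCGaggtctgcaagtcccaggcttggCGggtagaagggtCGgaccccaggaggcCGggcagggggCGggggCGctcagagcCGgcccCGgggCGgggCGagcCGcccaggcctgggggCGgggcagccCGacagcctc
Notch4 promoter, chr17:34564045-34564294, plus strand: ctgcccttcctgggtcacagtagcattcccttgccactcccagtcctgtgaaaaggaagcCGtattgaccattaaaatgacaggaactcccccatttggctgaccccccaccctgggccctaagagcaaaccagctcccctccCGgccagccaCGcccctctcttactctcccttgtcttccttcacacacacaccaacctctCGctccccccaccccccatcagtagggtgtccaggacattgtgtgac

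The Notch2 stretch held 34 CpG dinucleotides, the Notch3 stretch 17 and the Notch4 stretch 4, while the median over 32851 such stretches of the RefSeq table was 6. A promoter entry was found for 8 of the 10 genes (9 stretches, since Dll1 has a pair of starts), and Hes1 and Hey1 had none. In the others the counts were 54 CpG for Jag2, 20 for Jag1, 21 and 13 for the starts of Dll1, 16 for Notch1 and 14 for Dll4. The stretches of Notch1 and Jag2 and the one for the downstream start of Dll1 (chr17:15375824-15376073) lie inside the genes as GENCODE M21 draws them. Those of Jag1, Notch2 and Notch4 lie partly inside. Among the receptors, CpG counts and levels per kilobase ran in the same order, with Notch3 and Notch1 close in both. With the longest transcript as the length, Notch3 and Notch1 change places, so this is a description of 4 genes and no more.

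The core of the site bound by Rbpj, TGGGAA on either strand, was in 0 of the 9 stretches and in 21.6% of all stretches. The E-box CACGTG was likewise in 0 of the 9 and in 6.02% of all. CACNAG, the N-box bound by Hes proteins, was in 4 of the 9 and in 36.7% of all. Its matches began 108 bases before the start of Notch1, 247 before Notch2, 204 and 159 before Notch3, and 75 before Dll4, and none of them overlapped. A match is only a match of letters in this window.

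Of the receptors, 0 passed the test (0 at an unadjusted p-value under 0.05 by edgeR, 0 by DESeq2), and all 4 estimates lay between -0.24 and 0.07 on the log2 scale. Notch2, a receptor with wide expression in mesenchymal and blood cells, lies at chr3:98013527-98150361 (mm10, plus strand). It was measured at 436, 449 and 455 CPM in control libraries, against 454, 378 and 513 CPM in Osr2-Cre;Ror2fl/fl libraries. The control values were close together and lay inside the range of the Osr2-Cre;Ror2fl/fl values. The log2 fold change was 0.01 ± 0.13 (SE), with a 95% interval from -0.30 to 0.31 and an adjusted p-value of 0.98 by edgeR.

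Notch1 (chr2:26457903-26516663, minus strand), the receptor known from T cells and many epithelia, was at 103, 112 and 111 CPM in control, against 114, 91.5 and 137 CPM in Osr2-Cre;Ror2fl/fl libraries. As for Notch2, library 2 was the lowest and library 3 the highest of the Osr2-Cre;Ror2fl/fl group, and the control values lay within that range. This gave a log2 fold change of 0.07 ± 0.15, with a 95% interval from -0.26 to 0.41 and an adjusted p-value of 0.74 by edgeR. An RNA annotated on the opposite strand, 0610009E02Rik, shares exon bases with Notch1 but held at most 5.14% of the Notch1 count in any library.

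Notch3 (chr17:32120820-32166852, minus strand) is the receptor of pericytes and vascular smooth muscle cells. Its control values were 77.1, 89.0 and 91.9 CPM, against 87.4, 58.7 and 72.0 CPM in Osr2-Cre;Ror2fl/fl libraries. Library 1 of the latter reached the control range and the other 2 lay below it. For Notch3 the log2 fold change was -0.24 ± 0.15, with a 95% interval from -0.59 to 0.10 and an adjusted p-value of 0.26 by edgeR. Set against the summed pericyte and smooth muscle markers of the same library, Notch3 was 22.3 to 23.6 CPM per 100 marker CPM in control and 19.8 to 26.3 in Osr2-Cre;Ror2fl/fl libraries, which overlap. Relative to 100 CPM of endothelial markers it was 30.7 to 33.3 against 24 to 30.1, of dental mesenchyme markers 17.2 to 18.5 against 10.7 to 14.5, and of dental epithelial markers 0.045 to 0.05 against 0.0317 to 0.0342. On these 3 scales Notch3 was lower without overlap (exact permutation p = 0.1 each). The dental mesenchyme sum was itself higher in Osr2-Cre;Ror2fl/fl libraries (540 to 603 CPM, against 449 to 514 CPM in control). Against the odontoblast, leukocyte, erythroid and proliferating cell sums the groups overlapped (exact permutation p = 0.2 to 0.9). Against the skeletal muscle sum, itself lower in Osr2-Cre;Ror2fl/fl libraries, Notch3 was higher without overlap.

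Notch4 (chr17:34564268-34588503, plus strand), a receptor mostly of endothelial cells, was at 9.18, 12.9 and 12.6 CPM in control, against 9.18, 9.12 and 12.1 CPM in Osr2-Cre;Ror2fl/fl libraries. Control library 1 was as low as the lower 2 libraries of the other group. Its log2 fold change was -0.19 ± 0.17, with a 95% interval from -0.59 to 0.21 and an adjusted p-value of 0.46 by edgeR.

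Notch2 made up most of the receptor transcripts in both groups. Of the summed length-scaled level of the 4 receptors, Notch2 held 67.8% ± 1.29 (SD, n = 3) in control and 69.5% ± 1.44 (n = 3) in Osr2-Cre;Ror2fl/fl libraries, Notch3 17.4% ± 0.91 and 15.04% ± 2.16, Notch1 12.5% ± 0.17 and 13.3% ± 0.77, and Notch4 2.33% ± 0.33 and 2.11% ± 0.24. The Notch1 share was higher in every Osr2-Cre;Ror2fl/fl library than in every control library, with an exact two-sided permutation p-value of 0.1, the smallest that 3 against 3 libraries allow. The p-values of the other 3 shares lay between 0.2 and 0.4. The summed level was 61.1 ± 2.43 CPM per kilobase in control and 59.8 ± 9.03 in Osr2-Cre;Ror2fl/fl libraries (exact permutation p = 0.8).

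Of the ligands, 0 passed by edgeR, 1 (Jag2) at an unadjusted p-value under 0.05 and the same 1 by DESeq2. Jag2 is the ligand with the higher level per kilobase of the pair of Jagged genes. Jag2 (chr12:112907819-112929776, minus strand), known from dental and oral epithelium, was at 187, 185 and 187 CPM in the control libraries, against 252, 241 and 210 CPM in the Osr2-Cre;Ror2fl/fl libraries. All 3 values of the latter group lay above the control values, which were nearly equal. The log2 fold change was 0.33 ± 0.11, with a 95% interval from 0.09 to 0.58, and the adjusted p-value of 0.059 by edgeR missed the threshold. The exact permutation p-value was 0.1, the smallest possible.

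The Jag2 estimate moved with an offset for GC content. Over all genes, the median log2 fold change went from -0.27 in genes with 28.3% to 43.8% GC to 0.21 in genes with 55.3% to 78.4% GC, and the exons of Jag2 have 61.9% GC. With an offset for GC content, the log2 fold change of Jag2 was 0.10 (adjusted p = 0.50, edgeR). DESeq2's Wald test called it at an adjusted p-value of 0.015, as did edgeR with a minimum of 10 counts in every library (adjusted p = 0.0499) and without Osr2-Cre;Ror2fl/fl library 3 (adjusted p = 0.033). Against the summed dental epithelial markers, Jag2 was 0.0964 to 0.109 CPM per 100 marker CPM in control and 0.0984 to 0.130 in Osr2-Cre;Ror2fl/fl libraries. On that scale the groups overlapped (exact permutation p = 0.8), as they did against the endothelial, odontoblast and dental mesenchyme sums. The dental mesenchyme sum was itself higher in Osr2-Cre;Ror2fl/fl libraries (540 to 603 CPM, against 449 to 514 CPM in control). Against the pericyte and smooth muscle sum Jag2 was higher without overlap (46.2 to 57.1 in control, 58 to 81.4 in Osr2-Cre;Ror2fl/fl libraries). It was also higher without overlap against the leukocyte, proliferating cell, erythroid and skeletal muscle sums (exact permutation p = 0.1 each). The proliferating cell and skeletal muscle sums were themselves lower in Osr2-Cre;Ror2fl/fl libraries. The part of cell composition in the Jag2 difference was not tested. Of the 8 epithelial markers, 0 passed by edgeR, 4 at an unadjusted p-value under 0.05 and 3 by DESeq2.

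Jag1 (chr2:137081456-137116644, minus strand), a ligand of smooth muscle, endothelium and many mesenchymal tissues, was at 146, 157 and 153 CPM in control, against 179, 132 and 173 CPM in Osr2-Cre;Ror2fl/fl libraries. Library 2 of the latter lay below the controls and the other 2 above them. The fitted difference was 0.08 ± 0.13 on the log2 scale, with a 95% interval from -0.22 to 0.38 and an adjusted p-value of 0.67 by edgeR.

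Both Delta-like ligands were measured at low levels. Dll1 (chr17:15367354-15376872, minus strand), a ligand used in somites and progenitor pools, was at 15.7, 22.0 and 20.2 CPM in control, against 18.8, 14.5 and 14.5 CPM in Osr2-Cre;Ror2fl/fl libraries. Control library 1 and Osr2-Cre;Ror2fl/fl library 1 made the groups overlap, and the log2 fold change was -0.28 ± 0.16 (95% interval from -0.65 to 0.10, adjusted p = 0.24, edgeR). Of its exon bases, 20.6% also lie in A930024N18Rik on the opposite strand, which held up to 10.1% of the Dll1 count in a library. The use of strand in counting is not stated, so reads from this stretch cannot be assigned to either gene with certainty.

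Dll4 (chr2:119325784-119335962, plus strand), the ligand of sprouting endothelium, was at 7.75, 12.9 and 11.3 CPM in control, against 11, 9.19 and 11.6 CPM in Osr2-Cre;Ror2fl/fl libraries. The Osr2-Cre;Ror2fl/fl values lay within the control range. For Dll4 the log2 fold change was -0.01 ± 0.19, with a 95% interval from -0.45 to 0.44 and an adjusted p-value of 0.99 by edgeR. Per 100 CPM of summed endothelial markers, Dll4 was 3.35 to 4.43 CPM in control, against 3.76 to 4.04 CPM in Osr2-Cre;Ror2fl/fl libraries.

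The Jagged genes supplied most of the ligand transcripts. Jag2 held 44.4% ± 1.91 (SD, n = 3) of the summed length-scaled ligand level in control and 49.7% ± 4.72 (n = 3) in Osr2-Cre;Ror2fl/fl libraries, and Jag1 held 43.4% ± 0.20 and 40.7% ± 4.44. The shares of Dll4 were 4.56% ± 0.97 and 4.05% ± 0.43, and those of Dll1 7.57% ± 1.01 and 5.55% ± 0.42. Of the 4 shares, that of Dll1 alone had no overlap between the groups and was lower in all 3 Osr2-Cre;Ror2fl/fl libraries (exact permutation p = 0.1). The differences of the Jagged shares rested in part on Osr2-Cre;Ror2fl/fl library 2: that of Jag2 was 5.28 percentage points with it and 2.74 without it, and that of Jag1 was -2.75 with it and -0.39 without it. The summed ligand level was 60.2 ± 2.30 CPM per kilobase in control and 67.9 ± 5.71 in Osr2-Cre;Ror2fl/fl libraries, also without overlap (exact permutation p = 0.1). These are 10 share and sum comparisons in all, and none can pass an adjustment at this number of libraries.

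Of the target genes, Hey1 was lower in Osr2-Cre;Ror2fl/fl libraries and Hes1 was close to the same in both groups. Hey1 (chr3:8663359-8667256, minus strand), a repressor of the Hey family that acts in vessels, heart and bone-forming cells, was at 91.3, 117 and 114 CPM in the control libraries. In the Osr2-Cre;Ror2fl/fl libraries it was at 72.9, 70.2 and 59.9 CPM. Every control library lay above every Osr2-Cre;Ror2fl/fl library, and control library 1 was the lowest of its group.

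The mean was 108 ± 14.3 CPM (SD, n = 3) in control and 67.7 ± 6.82 CPM (n = 3) in Osr2-Cre;Ror2fl/fl libraries, and the fitted level fell by 37.2%. The log2 fold change was -0.67 ± 0.13, with a 95% interval from -0.96 to -0.38 and an adjusted p-value of 0.012 by edgeR over all genes. The exact permutation p-value was 0.1, the smallest that this design allows. No other gene shares a stretch of 75 bases with Hey1 or overlaps its exons. The edgeR call was lost without control library 2 (log2 fold change -0.61, adjusted p = 0.066) or control library 3 (-0.64, adjusted p = 0.064). DESeq2 called Hey1 in both cases, but with every library included it also called more genes in all (5410 against 3906). Without control library 1 the edgeR call was kept (-0.79, adjusted p = 0.013). In all, the call held in 14 of the 16 alternative settings that could change it, with log2 fold changes from -0.79 to -0.60 and adjusted p-values from 6.93e-05 to 0.037, and an offset for GC content gave -0.77 (adjusted p = 0.0076, edgeR).

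Hes1 (chr16:30064384-30067796, plus strand), a repressor that keeps progenitors undifferentiated in many tissues, was at 46.5, 50.6 and 51.5 CPM in control, against 45.7, 46.2 and 51.6 CPM in Osr2-Cre;Ror2fl/fl libraries. The groups overlapped over nearly their whole range, and no gene of the 10 varied less across the 6 libraries (highest over lowest 1.13-fold, against 1.96-fold for Hey1). Hes1 had a fitted log2 difference of -0.05 ± 0.09, with a 95% interval from -0.26 to 0.16 and an adjusted p-value of 0.72 by edgeR. The log2 ratio of Hey1 to Hes1 per kilobase was 0.29, 0.53 and 0.47 in control and -0.01, -0.08 and -0.46 in Osr2-Cre;Ror2fl/fl libraries. Hey1 was thus above Hes1 in every control library. In Osr2-Cre;Ror2fl/fl library 1 the genes were nearly equal (22.3 and 22.4 CPM per kilobase), and in libraries 2 and 3 Hey1 was lower. The ratios did not overlap between the groups, with a difference of -0.61 in the mean log2 ratio (exact permutation p = 0.1). Where the ratio crosses 0 depends on the exon lengths used.

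**Figure D3:**
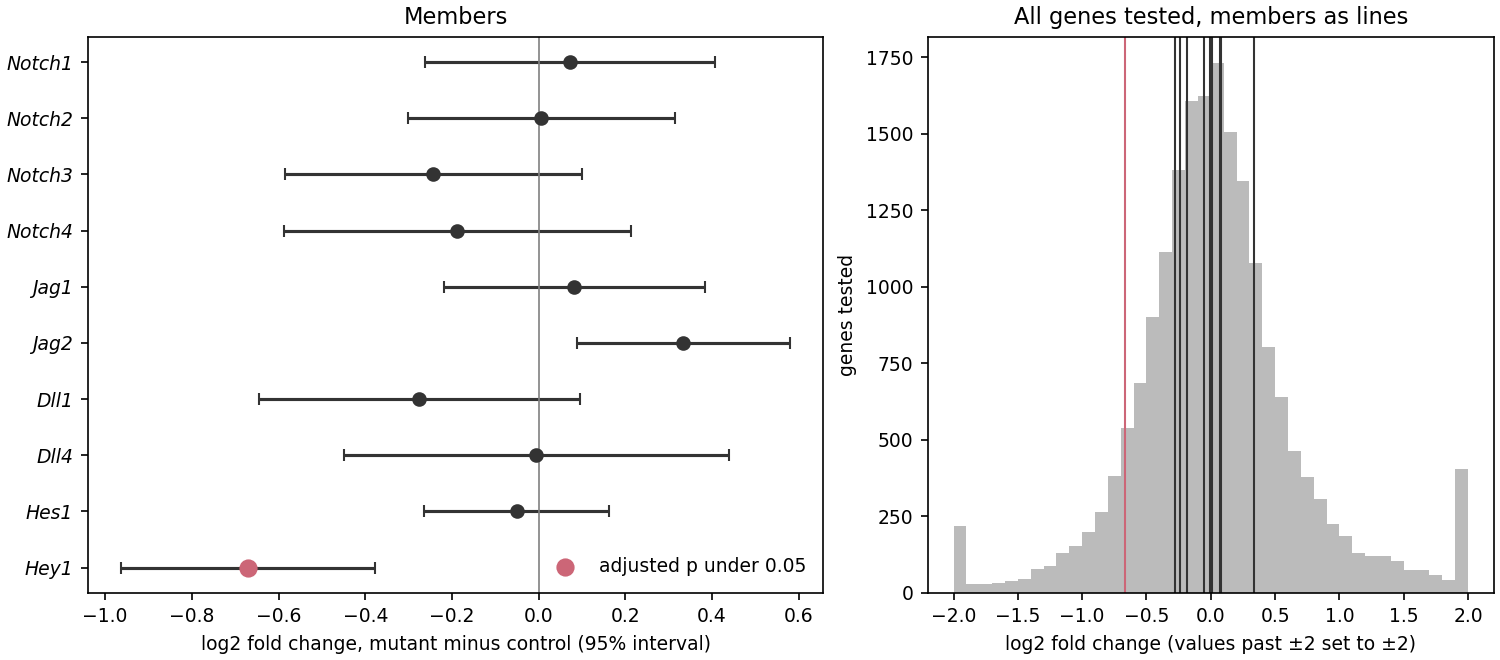
Left, log2 fold change (Osr2-Cre;Ror2fl/fl minus control) with its 95% interval for the 10 genes from edgeR's fit, with the gene of adjusted p-value under 0.05 in red. Right, the same values as vertical lines on the distribution over all 19330 genes tested. Only Hey1 (-0.67) passed, and the interval of Jag2 (0.09 to 0.58) also lies off 0.

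The level of Hey1 was set against lists of marker genes in the same library. Per 100 CPM of the 10 endothelial markers, Hey1 was 39.4, 40.4 and 38.7 CPM in control, against 25.1, 28.7 and 20.8 CPM in Osr2-Cre;Ror2fl/fl libraries. Per 100 CPM of the 8 pericyte and smooth muscle markers, it was 27.9, 29.3 and 28.7 CPM in control, against 21.9, 23.7 and 16.5 CPM in Osr2-Cre;Ror2fl/fl libraries. On both scales the control libraries were close together and the groups did not overlap. Per 100 CPM of the 8 dental mesenchyme markers, the values were 20.3 to 23.0 in control and 11.1 to 12.8 in Osr2-Cre;Ror2fl/fl libraries, again without overlap. The sum of these 8 markers was itself higher in Osr2-Cre;Ror2fl/fl libraries (540 to 603 CPM) than in control (449 to 514 CPM). Against 100 CPM of the 8 dental epithelial markers, Hey1 was 0.0533 to 0.0621 CPM in control, against 0.0281 to 0.0379 CPM in Osr2-Cre;Ror2fl/fl libraries. For the 5 leukocyte markers it was 150 to 162 against 98.4 to 114, so it was lower without overlap on these scales too (exact permutation p = 0.1 on each of the 5).

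Against 4 further lists Hey1 was not lower without overlap. Relative to 100 CPM of the skeletal muscle markers, whose sum was itself lower in Osr2-Cre;Ror2fl/fl libraries, Hey1 was higher without overlap (612 to 1680 against 3190 to 4070). Per 100 CPM of the 5 markers of proliferating cells, Hey1 was 74.1 to 104 CPM in control, against 66.5 to 100 CPM in Osr2-Cre;Ror2fl/fl libraries (exact permutation p = 0.6). The sum of these markers was itself 113 to 123 CPM in control, against 72.7 to 90.1 CPM in Osr2-Cre;Ror2fl/fl libraries, and 3 of the 5 (Mki67, Top2a and Cdk1) passed the test and were lower. Against the odontoblast and erythroid sums, which varied widely within the control group (14600 to 46400 and 782 to 1320 CPM), Hey1 also overlapped. The part of cell composition in the Hey1 difference was not tested.

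Of the 40 markers of endothelium, pericytes and smooth muscle, dental mesenchyme, dental epithelium and odontoblasts, 4 passed by edgeR and 11 by DESeq2. Among all 19330 genes tested, 20.2% (3906) passed by edgeR and 5410 by DESeq2. By list, the markers that passed were 1 of 10, 1 of 8, 2 of 8, 0 of 8 and 0 of 6 by edgeR, and 1, 3, 4, 3 and 0 by DESeq2. The summed endothelial markers were 231 to 295 CPM in control, against 244 to 290 CPM in Osr2-Cre;Ror2fl/fl libraries. Pecam1, a junction protein of endothelium, was at 0.05 on the log2 scale (adjusted p = 0.83, edgeR) and Cdh5, its cadherin, -0.19 (adjusted p = 0.42), and Egfl7, a secreted endothelial protein, was higher by 0.82 (adjusted p = 0.016). The pericyte and smooth muscle sum was 327 to 400 against 296 to 362 CPM, with contractile Acta2 at 0.31 (adjusted p = 0.26) and Tagln at 0.13 (adjusted p = 0.64), while the adhesion molecule Mcam was higher by 0.34 (adjusted p = 0.041). The median of these 8 was -0.20, with 5 negative estimates, among them the pericyte gene Rgs5 at -0.58 (adjusted p = 0.068) and Des, muscle desmin, at -0.89 without overlap of the groups (adjusted p = 0.058). Of the 8 mesenchymal transcription factors, Msx1 was at -0.19 (adjusted p = 0.35) and Msx2 (0.38, adjusted p = 0.042) and Dlx2 (0.51, adjusted p = 0.012) were higher. Msx2 and Dlx2 also had the highest levels of the 8 (means of 168 and 108 CPM in control), so they supplied the largest parts of the summed level. The median of the 8 was -0.07, with 4 positive and 4 negative estimates, the latter including Lhx8 at -0.64 (adjusted p = 0.088) and Pax9 at -0.50 (adjusted p = 0.063). Of the 6 odontoblast markers 0 passed by edgeR, adjusted or not, or by DESeq2, with Dspp at -0.30 (adjusted p = 0.62) and Dmp1 at 0.03 (adjusted p = 0.94). Of the epithelial markers Krt14 was at 0.40 (adjusted p = 0.088), Krt5 at 0.21 (adjusted p = 0.31) and Amelx at 0.56 (adjusted p = 0.085). The median of these 8 was 0.29, with 6 positive and 2 negative estimates. The negative ones were Ambn at -0.11 (adjusted p = 0.74) and Enam at -0.47 without overlap of the groups (adjusted p = 0.16).

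Markers of tissue around the pulp also moved with the groups. The 5 skeletal muscle markers summed to 6.80 to 19.1 CPM in control, against 1.79 to 2.04 CPM in Osr2-Cre;Ror2fl/fl libraries, and all 4 that could be tested were lower (Acta1, Ckm, Myh3 and Tnnt3). Among erythroid markers Hba-a1 and Alas2 were lower and Hbb-bs (-0.52) and Hbb-bt (-0.78) did not pass, with sums of 782 to 1320 CPM in control, against 243 to 932 CPM in Osr2-Cre;Ror2fl/fl libraries. Of the leukocyte markers Adgre1 was lower and Ptprc (-0.16), Csf1r (-0.21), Itgam (0.59) and Cd68 (0.41) did not pass, and their sums overlapped (60.1 to 78.3 and 52.6 to 74.1 CPM). Their part in any Notch result was not tested.

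The 10 genes also differed in how far they spread within a group. In the Osr2-Cre;Ror2fl/fl group, library 2 was the lowest for 6 of the 10 genes (Notch1, Notch2, Notch3, Notch4, Jag1 and Dll4) and for 36.9% of all genes. The coefficient of variation was 19.9% in this group against 4.55% in control for Notch1, 15% against 2.17% for Notch2, 15.7% against 3.69% for Jag1 and 9.34% against 0.624% for Jag2. Over all genes tested, 72.8% varied more in the Osr2-Cre;Ror2fl/fl libraries, and for the 10 genes it was 6. Control library 1 was the lowest control for 9 of the 10, all but Jag2, and for 41.4% of all genes.

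The genes whose log2 CPM ran most closely with the leading receptor, ligand and target over the 6 libraries were listed, as a description. For Notch2 they were 5830418P13Rik (Pearson's r = 0.996), Smg8 (0.990) and Ankhd1 (0.987), and 0.305% of all genes had an r above 0.95 with it. For Jag2 they were Git1 (0.998), Tnfrsf1a (0.998) and Cd300c2 (0.998), with 1.75% of genes above 0.95, and all 3 were higher in Osr2-Cre;Ror2fl/fl libraries with adjusted p-values between 0.029 and 0.048 by edgeR. For Hey1 they were Gm17276 (0.999), Htr1b (0.997) and Jdp2 (0.997), with 1.56% of genes above 0.95. Since these points share their libraries and their groups, any gene that differs between the groups in the same proportions ranks high.

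Gm17276 is an RNA annotated antisense to Notch3, with which it shares 488 exon bases. It was measured at 0.606, 0.841 and 0.794 CPM in control, against 0.457, 0.451 and 0.373 CPM in Osr2-Cre;Ror2fl/fl libraries, that is at no more than 49.2 counts in a library. The groups did not overlap, but its log2 fold change of -0.80 ± 0.29 had an adjusted p-value of 0.078 by edgeR. Htr1b, a serotonin receptor, fell from a mean of 4.77 to 1.62 CPM, a log2 fold change of -1.56 ± 0.27 (adjusted p = 0.0086, edgeR).

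Beyond the core genes, 45 other genes of the pathway were listed by role, of which 44 could be tested and Dll3 could not. In Osr2-Cre;Ror2fl/fl libraries 4 passed and were higher (Dtx3, Lfng, Numbl and Psen2), 5 passed and were lower (Adam10, Aph1b, Dlk1, Itch and Mib1) and 35 did not pass. These 9 are a share near the 20.2% of all genes. The median log2 fold change of the 44 was -0.04.

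Genes passed among the other ligands (1 of 3 tested), gamma-secretase subunits (2 of 7), processing proteases (1 of 3), glycosyltransferases (1 of 6), ligand ubiquitin ligases (1 of 4) and genes of receptor turnover (3 of 9), and in the nuclear factors (0 of 7) and other target-family genes (0 of 5) edgeR called none, with 1 and 0 at an unadjusted p-value under 0.05. By DESeq2 the nuclear factor Rbpj passed. Whether the roles differ was not tested. Adam10, the surface protease that makes the first activating cut in the receptor, was at 296, 320 and 314 CPM in control, against 211, 147 and 231 CPM in Osr2-Cre;Ror2fl/fl libraries. All control values lay above the others, with library 2 the lowest, and the log2 fold change was -0.66 ± 0.17 (adjusted p = 0.030, edgeR). Mib1, the ubiquitin ligase that lets ligands be taken up by the sending cell, was at 189, 232 and 256 CPM in control, against 150, 94.9 and 158 CPM in Osr2-Cre;Ror2fl/fl libraries. These groups did not overlap either, and the log2 fold change was -0.75 ± 0.20 (adjusted p = 0.038, edgeR).

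Itch, a ubiquitin ligase that marks Notch receptors for degradation, fell from a mean of 80.2 ± 6.74 to 50.8 ± 8.75 CPM (SD, n = 3 each), a log2 fold change of -0.66 ± 0.14 (adjusted p = 0.017, edgeR). Dtx3, of the Deltex family of ubiquitin ligases, was at 39.3, 36.4 and 37.9 CPM in control, against 62.6, 111 and 59.4 CPM in Osr2-Cre;Ror2fl/fl libraries. Library 2 was far above the rest, and the log2 fold change of 1.03 ± 0.22 (adjusted p = 0.018, edgeR) became 0.70 without it (adjusted p = 0.0025). Numbl, a relative of the Notch inhibitor Numb, was higher by 0.49 ± 0.14 on the log2 scale (39.6 and 55.5 CPM, adjusted p = 0.043).

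Lfng, the Fringe enzyme that adds sugar to Notch and alters its choice of ligand, was higher by 0.47 ± 0.13 (20.8 ± 2.74 and 28.8 ± 2.74 CPM, adjusted p = 0.036, edgeR). Psen2, a catalytic subunit of gamma-secretase, was higher by 0.39 ± 0.11 (10.3 and 13.5 CPM, adjusted p = 0.039, edgeR). Aph1b, a scaffold subunit of the same enzyme, fell by 0.62 on the log2 scale (38.8 and 25.2 CPM, adjusted p = 0.027). It shares 12.6% of its 75-base stretches with its copy Aph1c, so reads could be split between them. Dlk1, a ligand-like protein without the domain that activates Notch, fell by 0.67 (11.9 and 7.49 CPM, adjusted p = 0.047).

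Rbpj, the DNA-binding partner of all 4 receptors, was at 54.4, 60.9 and 59.7 CPM in control, against 51.0, 42.4 and 46.6 CPM in Osr2-Cre;Ror2fl/fl libraries. The groups did not overlap, and the log2 fold change of -0.32 ± 0.10 had an adjusted p-value of 0.055 by edgeR. It was 0.03 with an offset for GC content and length. Of the other target-family genes Heyl, expressed in mural cells, differed by 0.07 on the log2 scale (40.7 and 42.9 CPM, adjusted p = 0.59) and Hey2 -0.04 (3.37 and 3.27 CPM, adjusted p = 0.90), and whether Hey1 differed from these relatives was not tested.

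**Figure D4:**
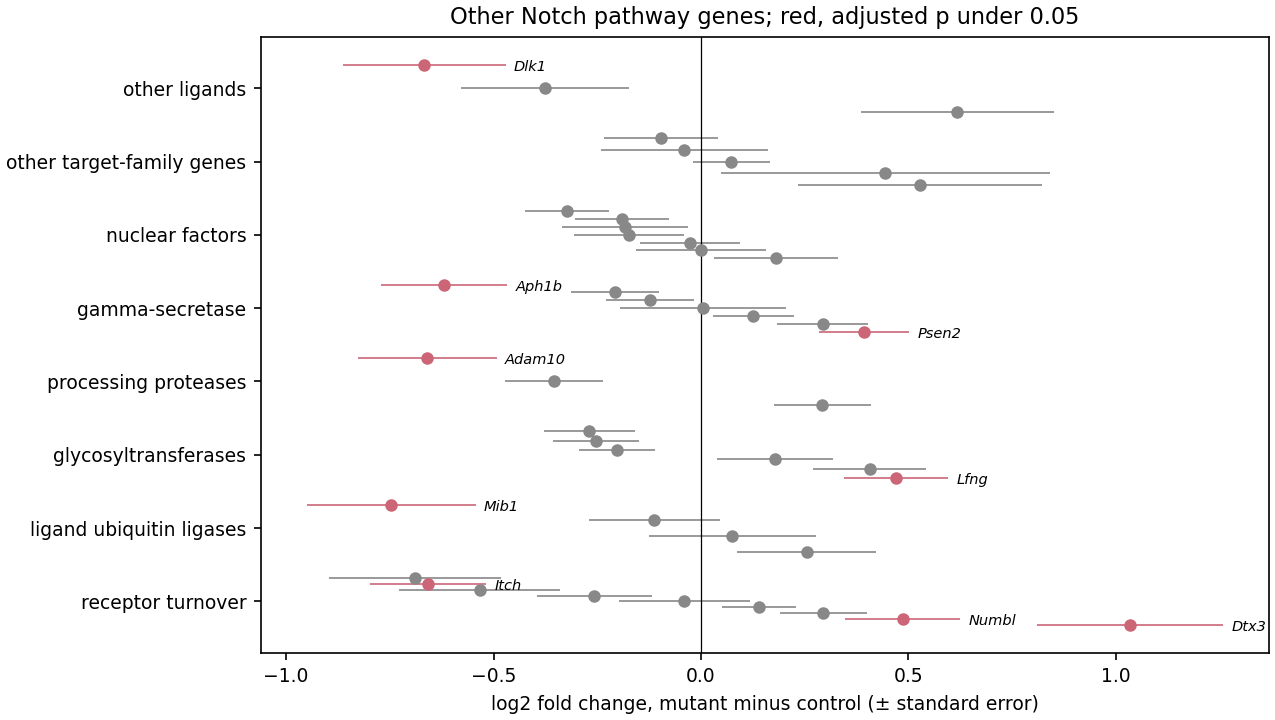
Log2 fold change (Osr2-Cre;Ror2fl/fl minus control) ± SE of the 44 other Notch pathway genes tested, grouped by role, with genes of adjusted p-value under 0.05 by edgeR in red and named. The 9 red points lie on both sides of 0, from -0.75 (Mib1) to 1.03 (Dtx3), and none is among the nuclear factors or the other target-family genes.

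An offset for GC content changed these calls. Adam10, Mib1, Itch and Aph1b have between 42.1% and 43.4% GC in their exons, in the range where the median of all genes was -0.27. With an offset for GC content, 4 of the 44 genes passed (Dlk1, Dtx1, Dtx3 and Itch), and Adam10 (-0.43, adjusted p = 0.084), Mib1 (-0.55, adjusted p = 0.072), Aph1b, Lfng, Numbl and Psen2 no longer did. Over all 19330 genes tested, 2828 passed with that offset. Itch moved from -0.66 to -0.42 (adjusted p = 0.045, edgeR), and to -0.31 with GC content and length (adjusted p = 0.042, edgeR). By exon length, the median over all genes ran from 0.19 (57 to 1593 bases) to -0.19 (6714 to 123179 bases). Without control library 2 or without control library 3, 0 of the 44 genes passed by edgeR (13 at an unadjusted p-value under 0.05 in each case), and 4 and 5 passed by DESeq2. Over all genes edgeR then called 910 and 872. The unadjusted and the DESeq2 counts over all genes were not computed for these fits. Those counts are therefore no result about the pathway genes.

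**Figure D5:**
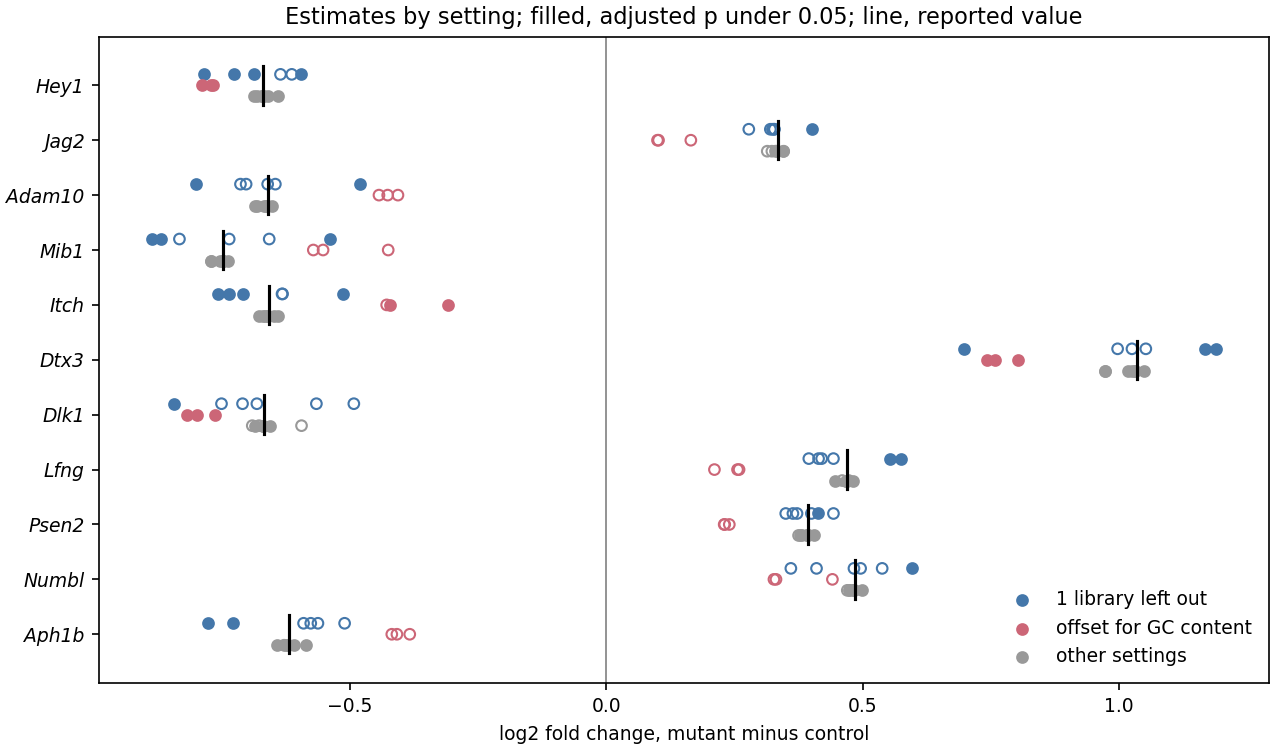
Log2 fold change of Hey1, Jag2 and the 9 called pathway genes under each alternative setting, with 1 library left out in blue, offsets for GC content in red, other settings in gray, filled symbols for an adjusted p-value under 0.05 and a black line for the reported value. Hey1 stays between -0.79 and -0.60 with the red symbols filled, whereas the red symbols of Jag2 lie between 0.10 and 0.17 and are open.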

How the data were processed

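Dental pulp libraries, 3 labelled Ror2fl/fl control and 3 labelled Osr2-Cre;Ror2fl/fl, were compared, grouped by the genotype in the labels. The authors deposited estimated counts per gene (47.3% to 48.6% of values per library are whole) and a normalized signal table, in which each value is the count plus 1 times a factor per library. According to the methods, single-end reads of 75 cycles were aligned to mm10 with TopHat, while the submitters' processing notes name STAR 2.6.1d and Partek; the annotation, strand setting and division of shared reads are not given in the sources used here. A further 6 columns belonging to no labelled sample were not used.

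Counts were rounded, although whole counts had been assumed, and tested with edgeR 4.0.16 (quasi-likelihood, TMM, filterByExpr, no block) in R 4.3.3 over 19330 genes, with Benjamini-Hochberg adjustment at 0.05. Single values were compared by exact two-sided permutation over libraries, on log2 CPM with a prior count of 2 where they are levels. Depth was 56134770 to 62628940 counts. GC content, exon length (union of exons) and coordinates are from GENCODE M21 on mm10, which matched all 27506 genes by symbol and chromosome, and promoters from RefSeq. Alternatives were DESeq2 1.42.0, other scalings and filters, GC and length offsets, the sample index as a block, each library left out and limma-trend (limma 3.58.1, pseudocount 1) on the deposited signal. Summing genes that share 75-base stretches, and levels relative to marker sums, were added after seeing the data. The fit was also run on simulated counts with the same dispersion for every gene and no trend with GC content or length. That run does not gauge the error rate in these libraries.

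The Notch genes, the pathway list and the marker lists were chosen with earlier results of these data known. Named in the text are all 10 Notch genes, pathway genes past the threshold with Rbpj, Adam10, Lfng and Mib1, Ror2, the first 2 markers of each list reported and those past the threshold, and the 3 genes most correlated with the most abundant receptor, ligand and target. Heyl, Hey2, Rgs5, Des, Lhx8, Pax9, Amelx, Ambn, Enam, Col1a1, the leukocyte markers not past the threshold and the genes sharing sequence with a member were named after their values were seen. Some genes the rule names, and 1 marker list, are not reported here.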

Additional observations from a re-analysis of the deposited data

How the results depend on the processing

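Hey1 kept its direction in all 16 alternatives that could change it and its call in 14. Of the other 9, Jag2 passed under 3 alternatives and the rest under 0. By DESeq2 or with at least 10 counts in every library 2 of the 10 Notch genes passed, and with 1 library left out 0 to 2. Of the other pathway genes 14 passed by DESeq2, 4 with the GC offset, 5 with the GC and length offset, and 0 to 9 with 1 library left out, where the count over all genes ran from 872 to 5001. Over all genes, 5410 of 19330 passed by DESeq2 and 3616 of 17294 with at least 10 counts. With the GC offset 2828 passed, and with GC and length 2945. The median of the 10 was -0.15 with the GC offset, -0.17 with GC and length, and -0.15 to 0.041 with 1 library left out (-0.15 without control library 1). Estimates close to 0 changed sign. Notch2 was -0.013 with library size scaling, -0.003 without a filter, -0.12 with the GC offset and -0.11 to 0.12 with 1 library left out. Dll4 was 0.005 with at least 10 counts, 0.032 by limma-trend and -0.20 to 0.15 with 1 library left out, and Notch1 was -0.12 with the GC offset and -0.083 to 0.22 with 1 left out. Rbpj was 0.034 with GC and length. The cause of these shifts was not tested.

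The sample index in the labels takes equal values in both groups, but libraries with the same number did not deviate together (r = -0.10, -0.08 and -0.004). With the sample index as a replicate block, edgeR called 2013 genes in all, Hey1 of the 10 (adjusted p = 0.037) and 4 of the pathway genes, with Notch2 at -0.005 and Dll4 at 0.018. With the block and the GC offset it called 1323 genes, Hey1 and 2 pathway genes, with the median of the 10 at -0.15, Notch1 at -0.14 and Notch2 at -0.13. The 10 genes had at least 499 counts in every library. With 3 libraries a group no single-value permutation test can go below 0.1.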
